A study of Mus musculus with 26 samples.

Results

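Striatum of R6/1 mice was compared between 8 weeks and 4 weeks of age, to describe how expression differs with age within a line that models Huntington's disease. The groups are R6/1 at 8 weeks and R6/1 at 4 weeks, with 3 libraries each, so 6 of the 26 libraries of the series. The wild-type groups at 8 weeks and at 4 weeks, also with 3 libraries each, are given beside them. The 4 groups at these ages are mouse striatum from which total RNA was taken, and the labels name no treatment for them. A later comparison uses R6/1 and wild-type mice at 10 weeks, with 2 libraries each. Those mice were injected with a control adeno-associated virus. The R6/1 line is transgenic for the first exon of human huntingtin with an expanded CAG repeat, whose length is not given in the labels. Symbols listed in both tables were joined, small RNA rows were left out, and genes with a mean of at least 0.5 FPKM over the 2 R6/1 groups were kept, which left 14076 genes. FPKM are fragments per kilobase of transcript, scaled to the mapped fragments of the library. Just inside that minimum was Oca2 with a mean of 0.502 FPKM, and just outside it was Fsip1 with 0.499 FPKM.

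The striatum is built mostly of spiny projection neurons, GABA-releasing cells that take dopamine and cortical glutamate input. Direct pathway neurons carry the dopamine receptor D1 with substance P and dynorphin, and indirect pathway neurons carry the dopamine receptor D2, an adenosine receptor and enkephalin. In Huntington's disease these neurons are the ones most affected, and low levels of their receptors, peptides and cyclic nucleotide enzymes are a known feature of patients and of mouse models. Myelin formation and the last steps of neuron maturation are still under way in the striatum of young mice.

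The deposited tables give 1 pooled FPKM value per group and gene and no value per library, so depth and the spread between libraries are unknown here and no SD or interval can be given. The 2 ages were normalised in separate tables, so a difference by age and a difference by table cannot be told apart, and no test across ages was possible. Each column was scaled to the same median (factors 0.992 to 1.01), and a change between the ages is the difference of log2(FPKM + 1), 8 weeks minus 4 weeks, which understates the change of low genes. "Past 1.5-fold" marks a size (0.585 on that scale), not a test. The labels do not say whether each library is a separate animal. In bulk tissue, fewer cells of a type and less RNA per cell cannot be told apart. Markers that define spiny projection neurons were abundant in all 4 pools, with Ppp1r1b at 402 to 983 FPKM.

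In R6/1 striatum, differences between the ages lay mostly on the low side at 8 weeks. Past 1.5-fold, 309 genes were lower at 8 weeks than at 4 weeks (2.2% of 14076) and 65 were higher (0.462%). Wild-type striatum had 170 genes lower (1.21%) and 164 higher (1.17%) over the same interval. The median change of all genes was 0.01 in R6/1 and -0.01 in wild type, with an SD across genes of 0.23 in each. Of the 309 genes lower in R6/1, 85 were also lower past 1.5-fold in wild type, which is 27.5% of the R6/1 list and 50% of the wild-type list. Another 223 were within 1.5-fold in wild type and 1, Gm10754, was higher there. Of the 65 genes higher in R6/1, 23 were also higher in wild type (35.4% of the R6/1 list and 14.02% of the wild-type list).

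**Figure D1:**
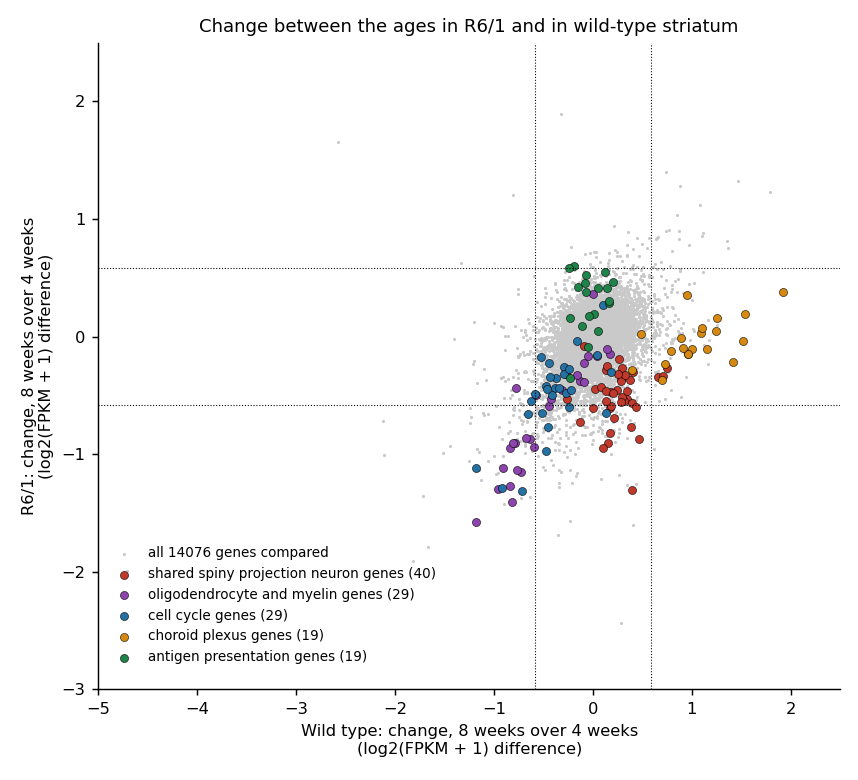
Change between the ages in R6/1 (vertical axis) against wild type (horizontal axis), both as 8 weeks minus 4 weeks in log2(FPKM + 1), for 14076 genes (1 pooled value per group, no error). Dotted lines mark 1.5-fold. Shared spiny projection neuron genes lie below 0 in R6/1 and mostly above 0 in wild type, most myelin and cell cycle genes lie below 0 on both axes, choroid plexus genes lie to the right, and most antigen presentation genes lie above 0 in R6/1.

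Genes shared by all spiny projection neurons were lower in R6/1 at 8 weeks as a body. That list, like all the gene lists here, was chosen with earlier results of these data known, so its counts are a description only. All 40 genes of the list had a change below 0 in R6/1, with a median of -0.48 and a range of -1.30 to -0.08, and 12 were lower past 1.5-fold with 0 higher. Over all genes 2.2% were lower and 0.462% higher. In wild type, 37 of the 40 had a change above 0, with a median of 0.26. Summed over the list, the scaled level was 4000 FPKM in R6/1 at 8 weeks and 5787 FPKM at 4 weeks, against 8123 FPKM in wild type at 8 weeks and 6836 FPKM at 4 weeks. The R6/1 and wild-type sums therefore lay in opposite order by age.

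The lowest change of that list was in Scn4b (chr9:44947124-44962144, mm9), a sodium channel beta subunit. Its level was 81.1 FPKM at 8 weeks and 202 FPKM at 4 weeks in R6/1 (change -1.30). Wild type had 352 FPKM at 8 weeks and 267 FPKM at 4 weeks (change 0.40). Its R6/1 level at 8 weeks was the lowest of the 4 pools and its wild-type level at 8 weeks the highest. Arpp21, which encodes a cyclic AMP-regulated phosphoprotein, stood at 139 FPKM at 8 weeks and 270 FPKM at 4 weeks in R6/1 (change -0.95). Wild type had 358 FPKM at 8 weeks and 333 FPKM at 4 weeks (change 0.10). Rgs9, a regulator of G protein signalling that acts on dopamine receptor signals, stood at 71.9 FPKM at 8 weeks and 136 FPKM at 4 weeks in R6/1 (change -0.91). Wild-type levels were 186 FPKM at 8 weeks and 168 FPKM at 4 weeks (change 0.15). The same order of the 4 pools held for Ppp1r1b, which encodes DARPP-32, the phosphoprotein through which dopamine acts on protein phosphatase 1. It had 402 FPKM at 8 weeks and 650 FPKM at 4 weeks in R6/1 (change -0.69). Wild type had 983 FPKM at 8 weeks and 851 FPKM at 4 weeks (change 0.21). For Ppp1r1b and Arpp21 the listed position is also that of another gene, and reads could have been split.

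The test that the files hold runs between genotypes within each age. In the authors' deposited table for 8 weeks, 38 of the 40 shared genes were called lower in R6/1 than in wild type at q below 0.05 and 1 was called higher, where 5.32% of all genes were called lower and 0.796% higher. In the authors' deposited table for 4 weeks, 1 was called lower and 1 higher, where 0.178% of all genes were called lower and 0.284% higher. The gene called higher at both ages was the orphan receptor gene Gpr149 (log2 fold change 0.65 at 8 weeks, q = 0.0245, and 0.65 at 4 weeks, q = 0.0145, in the authors' deposited tables). Gpr149 is named here after its values were seen. Gpr149 also had the smallest change between the ages on the list (-0.08).

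**Figure D2:**
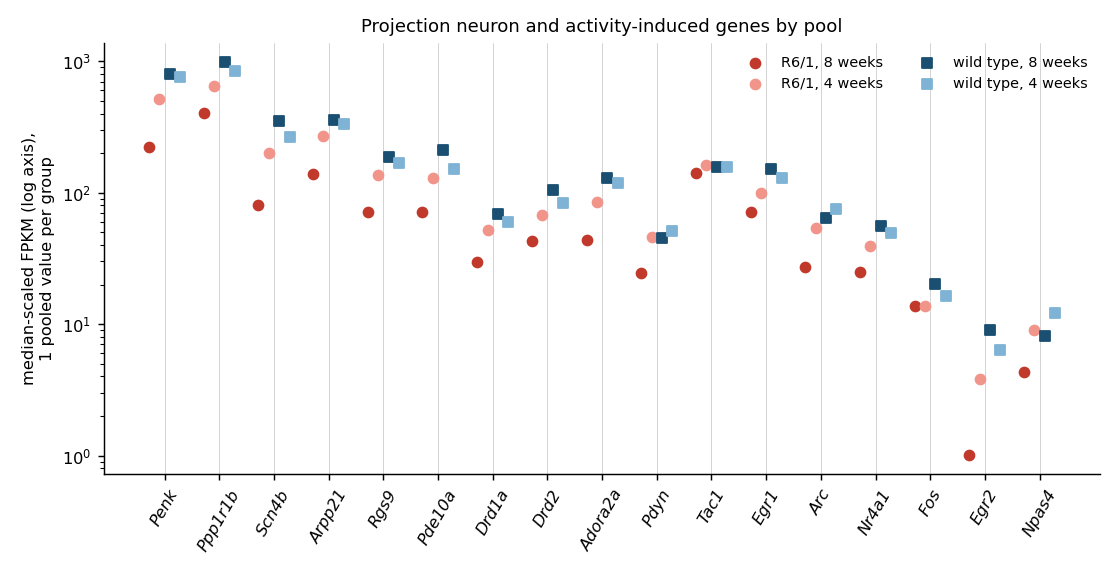
Median-scaled FPKM (log axis) of projection neuron genes and activity-induced genes in the 4 pools, 1 pooled value per group with no error. For most of these genes the R6/1 pool at 8 weeks is the lowest of the 4; Tac1 lies between 140 and 163 FPKM in all pools, and Fos is at 13.7 FPKM in R6/1 at 8 weeks and 13.7 FPKM at 4 weeks.

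Both output pathways had members that were lower in R6/1 at 8 weeks, and the indirect pathway list had the lower median. Of 13 indirect pathway genes, 12 were below 0 in R6/1 and 5 were lower past 1.5-fold with 0 higher (median -0.37, against 0.11 in wild type). Over all genes 2.2% were lower and 0.462% higher. Penk (chr4:4060682-4065592, mm9), the precursor of enkephalin, had 224 FPKM at 8 weeks and 520 FPKM at 4 weeks in R6/1 (change -1.21). Wild type had 806 FPKM at 8 weeks and 764 FPKM at 4 weeks (change 0.08). Adora2a, the adenosine receptor of these neurons, had 43.7 FPKM at 8 weeks and 85.2 FPKM at 4 weeks in R6/1 (change -0.95). Wild-type levels were 129 FPKM at 8 weeks and 119 FPKM at 4 weeks (change 0.11). Gpr6, an orphan receptor of indirect pathway neurons, had a change of -0.74 in R6/1 and 0.10 in wild type. Drd2, the D2 receptor, had 42.7 FPKM at 8 weeks and 68.1 FPKM at 4 weeks in R6/1 (change -0.66). Wild type had 104 FPKM at 8 weeks and 83.5 FPKM at 4 weeks (change 0.32). In each of these 4 genes the R6/1 pools were below both wild-type pools at either age, and the 8-week R6/1 pool was the lowest.

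Among 13 direct pathway genes, 8 were below 0 in R6/1 and 4 were lower past 1.5-fold with 0 higher (median -0.14, against 0.12 in wild type). Over all genes 2.2% were lower and 0.462% higher. Pdyn, the dynorphin precursor, had 24.4 FPKM at 8 weeks and 46.4 FPKM at 4 weeks in R6/1 (change -0.90). Wild type had 45.03 FPKM at 8 weeks and 50.8 FPKM at 4 weeks (change -0.17). Drd1a, the D1 receptor, had 29.7 FPKM at 8 weeks and 52.5 FPKM at 4 weeks in R6/1 (change -0.80). Wild-type levels were 68.7 FPKM at 8 weeks and 59.4 FPKM at 4 weeks (change 0.21). The muscarinic receptor Chrm4, whose listed position is shared with another gene, had 19.5 FPKM at 8 weeks and 34.5 FPKM at 4 weeks in R6/1 (change -0.80). Wild type had 43.7 FPKM at 8 weeks and 37.8 FPKM at 4 weeks (change 0.20). Tac1, the precursor of substance P, stood apart from these, with 140 FPKM in R6/1 at 8 weeks, 163 FPKM at 4 weeks, and 156 FPKM at 8 weeks and 157 FPKM at 4 weeks in wild type. The authors' deposited table for 8 weeks called 5 direct and 8 indirect pathway genes lower in R6/1 than in wild type. Over all genes that share was 5.32%. The authors' deposited table for 4 weeks called 0 direct and 2 indirect pathway genes lower, where 0.178% of all genes were.

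Genes induced by neuronal activity are switched on within minutes by calcium and cyclic AMP signals, largely through the factors CREB, SRF with its ETS partners, and MEF2. Of 21 immediate-early transcription factors, 16 were below 0 in R6/1 and 3 were lower past 1.5-fold with 0 higher (median -0.28, against 0.19 in wild type). Over all genes 2.2% were lower and 0.462% higher. Egr2, a zinc finger factor, had 1.01 FPKM at 8 weeks and 3.801 FPKM at 4 weeks in R6/1 (change -1.25). Wild type had 8.96 FPKM at 8 weeks and 6.37 FPKM at 4 weeks (change 0.43). Npas4, a factor that shapes inhibitory synapses, had 4.33 FPKM at 8 weeks and 8.95 FPKM at 4 weeks in R6/1 (change -0.90). Wild-type levels were 8.18 FPKM at 8 weeks and 12.1 FPKM at 4 weeks (change -0.51). Npas4 was thus lower at 8 weeks in both genotypes. Nr4a1, an orphan nuclear receptor, had 24.99 FPKM at 8 weeks and 39.3 FPKM at 4 weeks in R6/1 (change -0.63). Wild type had 56.1 FPKM at 8 weeks and 49.8 FPKM at 4 weeks (change 0.17). Egr1 had 71.2 FPKM at 8 weeks and 100 FPKM at 4 weeks in R6/1 (change -0.49). Wild type had 152 FPKM at 8 weeks and 130 FPKM at 4 weeks (change 0.23). Fos did not share that pattern by age: it had 13.7 FPKM at 8 weeks and 13.7 FPKM at 4 weeks in R6/1. Wild-type levels were 20.3 FPKM at 8 weeks and 16.4 FPKM at 4 weeks.

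Of 28 activity-regulated effectors, 24 were below 0 in R6/1 and 2 were lower past 1.5-fold with 0 higher (median -0.26, against 0.22 in wild type). Over all genes 2.2% were lower and 0.462% higher. Arc, a cytoskeleton-associated protein of active synapses, had 27.2 FPKM at 8 weeks and 54.1 FPKM at 4 weeks in R6/1 (change -0.97). Wild type had 64.1 FPKM at 8 weeks and 75.2 FPKM at 4 weeks (change -0.23). Rgs4 had 137 FPKM at 8 weeks and 216 FPKM at 4 weeks in R6/1 (change -0.66). Wild type had 303 FPKM at 8 weeks and 250 FPKM at 4 weeks (change 0.28). Dusp1, a phosphatase of MAP kinases, had 11.0 FPKM at 8 weeks and 16.4 FPKM at 4 weeks in R6/1 (change -0.54). Wild-type levels were 20.2 FPKM at 8 weeks and 20.03 FPKM at 4 weeks (change 0.01). Bdnf, a growth factor, ran the other way at a low level, with 2.63 FPKM at 8 weeks and 2.19 FPKM at 4 weeks in R6/1 (change 0.19). Wild type had 3.67 FPKM at 8 weeks and 2.58 FPKM at 4 weeks (change 0.38). The authors' deposited table for 8 weeks called 15 of 21 immediate-early factors and 17 of 28 effectors lower in R6/1 than in wild type, where 5.32% of all genes were. The authors' deposited table for 4 weeks called 1 factor and 2 effectors lower, where 0.178% of all genes were.

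The promoters below are shown because projection neuron genes, activity-induced genes and antigen presentation genes each lay together by age, and the letters in front of their starts differ. They are the 250 bases before the first listed start, 5′ to 3′ on the plus strand of GRCm38.p6 from RefSeq, which is a later build than the mm9 of the deposited tables. Capitals mark the core of the cyclic AMP response element, TGACG, on either strand (CGTCA on the strand shown where it lies on the other), and the ETS site CCGGAAGT on either strand. The motifs and the genes shown were chosen after their values were seen, Homer1 among them.
Nr4a1 chr15:101266596-101266845: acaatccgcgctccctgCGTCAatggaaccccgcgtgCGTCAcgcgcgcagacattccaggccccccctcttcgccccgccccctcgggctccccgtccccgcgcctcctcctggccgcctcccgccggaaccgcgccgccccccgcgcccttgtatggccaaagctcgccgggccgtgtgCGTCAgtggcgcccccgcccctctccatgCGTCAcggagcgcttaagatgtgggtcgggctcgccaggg
Homer1 chr13:93303507-93303756: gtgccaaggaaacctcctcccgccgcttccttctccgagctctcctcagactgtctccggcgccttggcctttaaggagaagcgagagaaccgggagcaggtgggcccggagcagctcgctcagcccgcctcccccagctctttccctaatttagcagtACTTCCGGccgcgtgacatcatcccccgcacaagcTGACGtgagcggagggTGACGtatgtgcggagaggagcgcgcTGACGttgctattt
Scn4b chr9:45138374-45138623: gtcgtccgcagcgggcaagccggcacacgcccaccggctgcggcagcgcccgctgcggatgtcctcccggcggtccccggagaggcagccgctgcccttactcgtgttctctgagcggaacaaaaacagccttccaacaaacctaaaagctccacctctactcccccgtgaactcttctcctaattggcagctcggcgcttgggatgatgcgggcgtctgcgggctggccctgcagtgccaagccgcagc
H2-D1 chr17:35262844-35263093: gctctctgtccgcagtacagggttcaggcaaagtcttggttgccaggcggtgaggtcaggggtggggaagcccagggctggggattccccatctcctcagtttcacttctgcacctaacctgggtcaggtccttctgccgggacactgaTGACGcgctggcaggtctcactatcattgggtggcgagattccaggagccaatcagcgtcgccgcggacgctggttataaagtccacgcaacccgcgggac

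Nr4a1 holds 4 such cores in that window, Homer1, a scaffold protein of excitatory synapses, holds 3 with 1 ETS site, H2-D1 holds 1 and Scn4b holds none of these letters. Homer1 had 25.5 FPKM at 8 weeks and 37.2 FPKM at 4 weeks in R6/1 (change -0.53). Wild type had 55.4 FPKM at 8 weeks and 42.2 FPKM at 4 weeks (change 0.38). Of the genes compared, 11101 of 14076 had a promoter in the table. The TGACG core occurred in 11 of 17 immediate-early factor promoters (64.7%), in 9 of 19 effector promoters (47.4%), in 8 of 16 antigen presentation promoters (50%) and in 2 of 30 shared spiny projection neuron promoters (6.67%). Over all genes compared the share was 26.8%, over the genes lower past 1.5-fold in R6/1 it was 16.1% (35 of 217), and over all 27025 promoters of the table it was 17.9%. So the activity-induced lists and the projection neuron list, which were both lower at 8 weeks, lay on opposite sides of the share over all genes. The ETS site occurred in 0 of the 217 promoters of the lower genes, against 5.54% over all genes compared. It occurred in 0 of 17 immediate-early factor promoters and in 1 of 19 effector promoters (5.26%). The serum response element, a site for SRF, occurred in 1 of those 17 (5.88%) and in 1 of those 19 (5.26%). Its share was 1.07% over all genes compared and 0.922% over the lower genes (2 of 217). Egr2, the immediate-early factor with the lowest change, held none of the sites counted here. The interferon-stimulated response element occurred in 3 of 16 antigen presentation promoters (18.8%) and in 2.37% over all genes compared. A match is a description of letters and does not show that a factor binds there.

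Signalling families of projection neurons also held genes lower past 1.5-fold in R6/1, where 2.2% of all genes were lower and 0.462% higher. Their lists overlap those above: Rgs9, Drd1a, Adora2a, Pde10a, Adcy5 and Pde1b, among others, are counted in both, so these families are not separate results. Of 42 G protein-coupled neurotransmitter receptors, 30 were below 0 in R6/1 and 6 were lower past 1.5-fold with 0 higher (median -0.15, against 0.18 in wild type). The lowest was the kappa opioid receptor Oprk1 with 3.66 FPKM at 8 weeks and 8.49 FPKM at 4 weeks in R6/1. Wild-type levels were 6.78 FPKM at 8 weeks and 8.34 FPKM at 4 weeks. Of 28 cyclic nucleotide enzymes, 3 were lower past 1.5-fold with 0 higher (median -0.08). Pde10a, a phosphodiesterase enriched in projection neurons, had 70.8 FPKM at 8 weeks and 130 FPKM at 4 weeks in R6/1 and 210 FPKM at 8 weeks and 153 FPKM at 4 weeks in wild type. Adcy5, their main adenylate cyclase, had 121 FPKM at 8 weeks and 214 FPKM at 4 weeks in R6/1 and 286 FPKM at 8 weeks and 254 FPKM at 4 weeks in wild type. Pde1b, a calcium-dependent phosphodiesterase, had 199 FPKM at 8 weeks and 303 FPKM at 4 weeks in R6/1 and 432 FPKM at 8 weeks and 382 FPKM at 4 weeks in wild type. Among 18 regulators of G protein signalling, 4 were lower past 1.5-fold with 0 higher (median -0.17), including Rgs11 (change -0.87 in R6/1) and Rgs14 (change -0.69 in R6/1).

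Ion channel families had few genes past 1.5-fold, where 2.2% of all genes were lower and 0.462% higher in R6/1. Of 56 potassium channel subunits 1 was lower past 1.5-fold, and the median was -0.07. That subunit, Kcnh4, had 4.20 FPKM at 8 weeks and 7.86 FPKM at 4 weeks in R6/1 and 13.7 FPKM at 8 weeks and 10.3 FPKM at 4 weeks in wild type. Of 18 intracellular calcium channels and pumps (median -0.12), the ryanodine receptor Ryr1 was lowest, with 1.55 FPKM at 8 weeks and 4.79 FPKM at 4 weeks in R6/1 (change -1.18). Wild type had 7.62 FPKM at 8 weeks and 6.17 FPKM at 4 weeks (change 0.27). The inositol trisphosphate receptor Itpr1 had a change of -0.34 in R6/1 and 0.66 in wild type. The 17 ionotropic glutamate receptor subunits had a median of -0.02 and 0 past 1.5-fold. The NMDA receptor subunit Grin2a had 5.02 FPKM at 8 weeks and 4.76 FPKM at 4 weeks in R6/1 and 7.05 FPKM at 8 weeks and 2.999 FPKM at 4 weeks in wild type. Grin2b, another NMDA receptor subunit, had 12.5 FPKM at 8 weeks and 11.2 FPKM at 4 weeks in R6/1 and 17.4 FPKM at 8 weeks and 7.20 FPKM at 4 weeks in wild type. Both were close between the ages in R6/1 and higher past 1.5-fold at 8 weeks in wild type, where the change varied with transcript length as given further on. Of 13 GABA-A receptor subunits (median 0.13), Gabrd alone was past 1.5-fold. This extrasynaptic delta subunit had 27.5 FPKM at 8 weeks and 46.0 FPKM at 4 weeks in R6/1 and 59.7 FPKM at 8 weeks and 55.8 FPKM at 4 weeks in wild type (change -0.72 in R6/1 and 0.09 in wild type). Gabra3 was at 0.32 in R6/1.

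Myelin genes were lower at 8 weeks in both genotypes. Of 29 oligodendrocyte and myelin genes, 28 were below 0 in R6/1 and 14 were lower past 1.5-fold with 0 higher (median -0.53). In wild type 14 were lower past 1.5-fold and 1 higher (median -0.57). Over all genes, 2.2% were lower past 1.5-fold in R6/1 and 1.21% in wild type. Lowest was Gsn, the actin-severing protein gelsolin, with 47.1 FPKM at 8 weeks and 143 FPKM at 4 weeks in R6/1 (change -1.58). Wild type had 62.0 FPKM at 8 weeks and 142 FPKM at 4 weeks (change -1.18). Ugt8a, the enzyme of galactocerebroside synthesis, had 29.4 FPKM at 8 weeks and 79.8 FPKM at 4 weeks in R6/1 and 40.2 FPKM at 8 weeks and 71.6 FPKM at 4 weeks in wild type (change -1.41 in R6/1 and -0.82 in wild type). In both genes the R6/1 pool at 8 weeks was the lowest. Cldn11, the tight junction protein of myelin, had 150 FPKM at 8 weeks and 369 FPKM at 4 weeks in R6/1 and 192 FPKM at 8 weeks and 373 FPKM at 4 weeks in wild type (change -1.30 in R6/1 and -0.96 in wild type). Mbp, myelin basic protein, had 1997 FPKM at 8 weeks and 3643 FPKM at 4 weeks in R6/1 (change -0.87). Wild-type levels were 2400 FPKM at 8 weeks and 3731 FPKM at 4 weeks (change -0.64). Mog, a myelin surface protein, had changes of -0.95 in R6/1 and -0.84 in wild type. In these 5 genes the 4-week pools of the 2 genotypes were near each other, and the R6/1 pool at 8 weeks was the lowest. The authors' deposited table for 8 weeks called 3 of the 29 lower in R6/1 than in wild type, where 5.32% of all genes were called lower. The authors' deposited table for 4 weeks called 0 of the 29 lower, where 0.178% of all genes were.

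Cholesterol synthesis, which supplies growing myelin, and the oligodendrocyte lineage lay the same way. All 25 cholesterol synthesis genes were below 0 in R6/1, with 5 lower past 1.5-fold (median -0.40, against -0.27 in wild type). Over all genes 2.2% were lower past 1.5-fold in R6/1. Cyp51, a sterol demethylase, had 15.3 FPKM at 8 weeks and 27.0 FPKM at 4 weeks in R6/1. Wild type had 19.3 FPKM at 8 weeks and 27.9 FPKM at 4 weeks. Of 19 genes of oligodendrocyte precursors and newly formed oligodendrocytes, 17 were below 0 and 4 were lower past 1.5-fold (median -0.34, against -0.27 in wild type). Gpr17, a receptor of newly formed oligodendrocytes whose position is shared with another gene, had 19.5 FPKM at 8 weeks and 38.01 FPKM at 4 weeks in R6/1. Wild-type levels were 21.8 FPKM at 8 weeks and 35.7 FPKM at 4 weeks. Enpp6, another marker of newly formed oligodendrocytes, had 5.49 FPKM at 8 weeks and 10.5 FPKM at 4 weeks in R6/1. Wild type had 5.62 FPKM at 8 weeks and 9.12 FPKM at 4 weeks.

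Genes of dividing and maturing cells were also lower at 8 weeks in both genotypes. Of 29 cell cycle genes, 28 were below 0 in R6/1 with 9 lower past 1.5-fold (median -0.44, against -0.41 in wild type), at low levels. Over all genes 2.2% were lower past 1.5-fold in R6/1 and 0.462% higher. Top2a, a DNA topoisomerase, had 0.506 FPKM at 8 weeks and 2.74 FPKM at 4 weeks in R6/1. Wild type had 1.28 FPKM at 8 weeks and 2.74 FPKM at 4 weeks. Rrm2, a ribonucleotide reductase subunit, had 0.629 FPKM at 8 weeks and 2.97 FPKM at 4 weeks in R6/1. Wild-type levels were 1.43 FPKM at 8 weeks and 3.59 FPKM at 4 weeks. The authors' deposited table for 8 weeks called 6 of the 29 lower in R6/1 than in wild type and 0 higher, where 5.32% of all genes were called lower. The authors' deposited table for 4 weeks called 1 of the 29 lower, where 0.178% of all genes were. Of 31 neuronal maturation genes, 26 were below 0 with 5 lower past 1.5-fold (median -0.27, against -0.24 in wild type). Cd24a, a surface glycoprotein of young neurons, had 3.16 FPKM at 8 weeks and 10.2 FPKM at 4 weeks in R6/1. Wild type had 5.90 FPKM at 8 weeks and 11.9 FPKM at 4 weeks. Igfbpl1 had 1.07 FPKM at 8 weeks and 3.82 FPKM at 4 weeks in R6/1. Wild type had 1.31 FPKM at 8 weeks and 4.06 FPKM at 4 weeks. Dcx, a microtubule protein of migrating neurons, had 6.84 FPKM at 8 weeks and 9.12 FPKM at 4 weeks in R6/1. Wild-type levels were 6.29 FPKM at 8 weeks and 7.56 FPKM at 4 weeks. Of 22 striatal and ganglionic eminence transcription factors, 6 were lower and 1 was higher past 1.5-fold (median -0.29). Here the members differed by genotype: Dlx1 (-0.98 in R6/1 and -1.15 in wild type) and Dlx2 (-0.77 in R6/1 and -0.95 in wild type) were lower in both, while Rarb, a retinoic acid receptor of projection neurons, was at -0.73 in R6/1 and -0.13 in wild type.

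**Figure D3:**
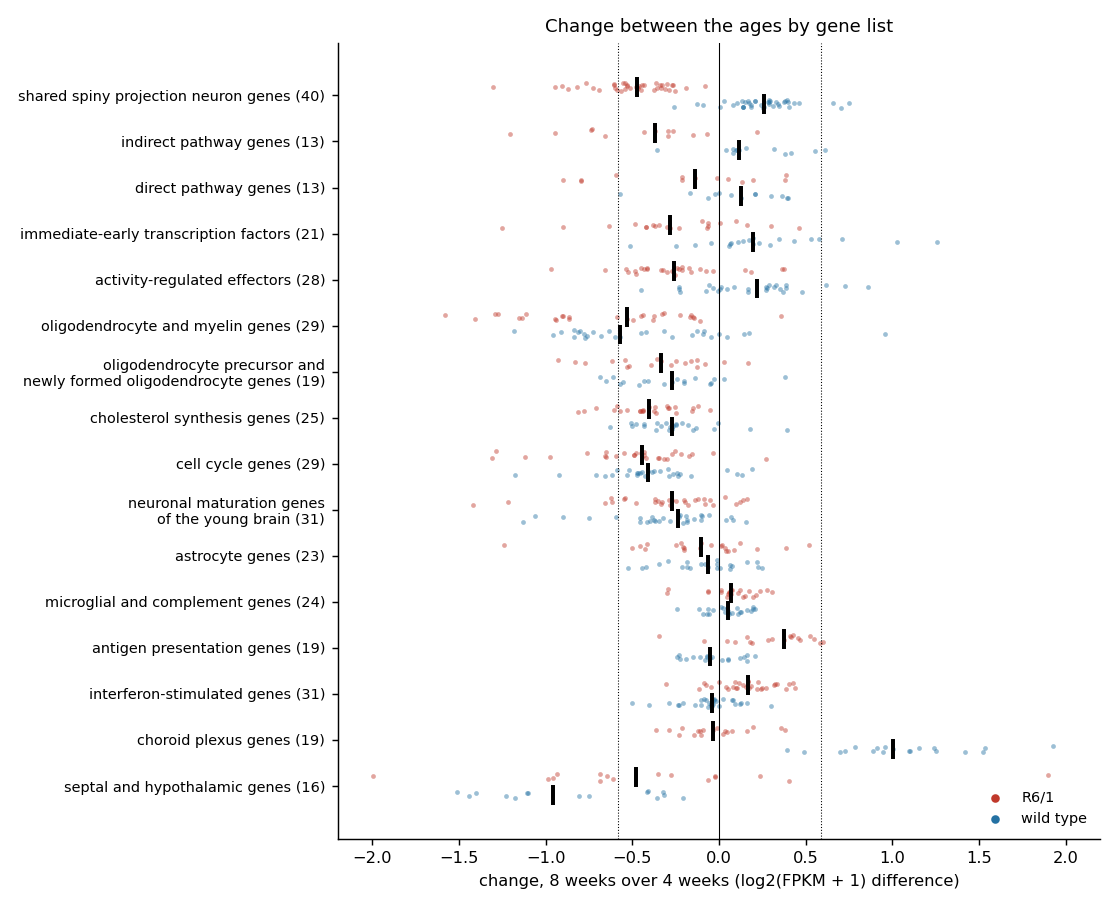
Change between the ages (8 weeks minus 4 weeks, log2(FPKM + 1)) of each gene of 16 lists, R6/1 above wild type in each row, 1 point per gene and a bar at the list median; dotted lines mark 1.5-fold and brackets give the genes compared. The wild-type point of Oxt (-4.70) lies beyond the axis and is not shown. The shared spiny projection neuron median is -0.48 in R6/1 and 0.26 in wild type, and the myelin median is -0.53 in R6/1 and -0.57 in wild type. The antigen presentation median is 0.38 in R6/1 and -0.05 in wild type, and the choroid plexus median is -0.03 in R6/1 and 1.00 in wild type.

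Astrocyte and microglial lists were close to all genes. The 23 astrocyte genes had a median of -0.11 with 1 lower past 1.5-fold. That gene, the matrix protein Thbs4, had 2.06 FPKM at 8 weeks and 6.24 FPKM at 4 weeks in R6/1 and 5.19 FPKM at 8 weeks and 6.87 FPKM at 4 weeks in wild type. Gfap, the filament protein of reactive astrocytes, had 49.6 FPKM at 8 weeks and 68.5 FPKM at 4 weeks in R6/1. Wild type had 57.1 FPKM at 8 weeks and 65.0 FPKM at 4 weeks. The 24 microglial and complement genes had a median of 0.07 and 0 past 1.5-fold. Their summed level was 529 FPKM at 8 weeks and 485 FPKM at 4 weeks in R6/1. Wild type had 533 FPKM at 8 weeks and 515 FPKM at 4 weeks.

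Of the 45 lists with at least 5 genes compared, antigen presentation had the highest median in R6/1. Of 19 genes, 17 were above 0 with a median of 0.38, against -0.05 in wild type. Relative to genes of the same transcript length class, the medians were 0.36 in R6/1 and 0.04 in wild type. Past 1.5-fold, 1 gene of the list was higher and 0 lower, where 0.462% of all genes were higher and 2.2% lower. That gene was H2-D1, a class I histocompatibility antigen with 25.8 FPKM at 8 weeks and 16.7 FPKM at 4 weeks in R6/1 (change 0.60). Wild-type levels were 16.5 FPKM at 8 weeks and 18.9 FPKM at 4 weeks (change -0.19). Reads of H2-D1 and H2-Q4 could be shared with other class I genes, which have near-identical stretches. H2-Q4, another class I gene, had 2.41 FPKM at 8 weeks and 1.28 FPKM at 4 weeks in R6/1 and 1.57 FPKM at 8 weeks and 2.04 FPKM at 4 weeks in wild type. The class II gene H2-Aa had 1.20 FPKM at 8 weeks and 0.507 FPKM at 4 weeks in R6/1 and 0.738 FPKM at 8 weeks and 0.598 FPKM at 4 weeks in wild type. For all 3 the R6/1 pool at 8 weeks was the highest of the 4. B2m, the shared light chain of class I molecules, named after its values were seen, had 92.3 FPKM at 8 weeks and 68.5 FPKM at 4 weeks in R6/1. Wild type had 72.1 FPKM at 8 weeks and 80.2 FPKM at 4 weeks. Of 31 interferon-stimulated genes 25 were above 0 in R6/1 with 0 past 1.5-fold (median 0.17, against -0.04 in wild type). Ifit3, an antiviral protein induced by interferon, had 2.88 FPKM at 8 weeks and 1.87 FPKM at 4 weeks in R6/1 and 2.23 FPKM at 8 weeks and 2.33 FPKM at 4 weeks in wild type. Ifit1 of the same family had 1.49 FPKM at 8 weeks and 0.850 FPKM at 4 weeks in R6/1 and 0.708 FPKM at 8 weeks and 0.838 FPKM at 4 weeks in wild type. Within the authors' deposited table for 8 weeks, 1 of 19 antigen presentation genes and 2 of 31 interferon-stimulated genes were called higher in R6/1 than in wild type, where 0.796% of all genes were. The authors' deposited table for 4 weeks called 0 of either higher, where 0.284% of all genes were.

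The genes with the lowest changes in R6/1 were of mixed kinds. Lowest was Pisd-ps1, a pseudogene with 9.88 FPKM at 8 weeks and 57.8 FPKM at 4 weeks in R6/1 (change -2.43). Wild type had 34.1 FPKM at 8 weeks and 27.8 FPKM at 4 weeks (change 0.28). Snurf had 16.6 FPKM at 8 weeks and 52.4 FPKM at 4 weeks in R6/1 (change -1.60). Wild-type levels were 66.2 FPKM at 8 weeks and 49.7 FPKM at 4 weeks (change 0.41). Snrpn, which shares its transcript, had 332 FPKM at 8 weeks and 247 FPKM at 4 weeks in R6/1. Wild type had 234 FPKM at 8 weeks and 259 FPKM at 4 weeks. Both Pisd-ps1 and Snurf share their listed position with other genes, so these values are uncertain. Nxph3, a secreted ligand of neurexins, had 3.18 FPKM at 8 weeks and 12.5 FPKM at 4 weeks in R6/1 (change -1.69). Wild type had 10.8 FPKM at 8 weeks and 14.1 FPKM at 4 weeks (change -0.35). Dmkn had a change of -1.57 in R6/1 and -0.23 in wild type, and the calcitonin receptor partner Ramp3 had -1.37 in R6/1 and -0.73 in wild type. Crym, a thyroid hormone-binding protein, had 45.3 FPKM at 8 weeks and 118 FPKM at 4 weeks in R6/1 and 85.4 FPKM at 8 weeks and 133 FPKM at 4 weeks in wild type (change -1.37 in R6/1 and -0.64 in wild type). The haemoglobin genes Hbb-b2 (-1.90 in R6/1 and -1.82 in wild type) and Hba-a1 (-1.79 in R6/1 and -1.66 in wild type), red blood cell genes with near-identical copies, were lower in both genotypes.

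The highest changes included Ptgds, the prostaglandin D synthase of the meninges and choroid plexus, with 391 FPKM at 8 weeks and 148 FPKM at 4 weeks in R6/1 (change 1.40). Wild-type levels were 240 FPKM at 8 weeks and 143 FPKM at 4 weeks (change 0.74). Il33, a cytokine of oligodendrocytes and astrocytes, had 28.0 FPKM at 8 weeks and 10.6 FPKM at 4 weeks in R6/1. Wild type had 30.8 FPKM at 8 weeks and 10.5 FPKM at 4 weeks. Cyp26b1, an enzyme that clears retinoic acid, had 3.89 FPKM at 8 weeks and 1.08 FPKM at 4 weeks in R6/1. Wild type had 6.58 FPKM at 8 weeks and 1.20 FPKM at 4 weeks. Spp1, the matrix protein osteopontin, had changes of 1.12 in R6/1 and 1.08 in wild type. Nr2f2 (1.28 in R6/1 and 0.88 in wild type), Bhlhe22 (1.03 in R6/1 and 0.85 in wild type), Prdm8 (0.91 in R6/1 and 0.76 in wild type) and Xdh (0.90 in R6/1 and 0.87 in wild type) also lay on the high side in both genotypes. By contrast Fmod, the matrix proteoglycan fibromodulin, had 2.80 FPKM at 8 weeks and 0.978 FPKM at 4 weeks in R6/1 (change 0.94). Wild-type levels were 1.23 FPKM at 8 weeks and 0.923 FPKM at 4 weeks (change 0.21). Pmch, a hypothalamic peptide precursor, had 4.30 FPKM at 8 weeks and 0.425 FPKM at 4 weeks in R6/1. Wild type had 0.125 FPKM at 8 weeks and 0.406 FPKM at 4 weeks. Gdf1 (change 1.66 in R6/1 and -2.58 in wild type) and Amd1 (change 1.21 in R6/1 and -0.80 in wild type) had opposite signs in the 2 genotypes, and Gdf1 shares its listed position with another gene. Neither Gdf1 nor Amd1 was called between the genotypes at 8 weeks or at 4 weeks in the authors' deposited tables.

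**Figure D4:**
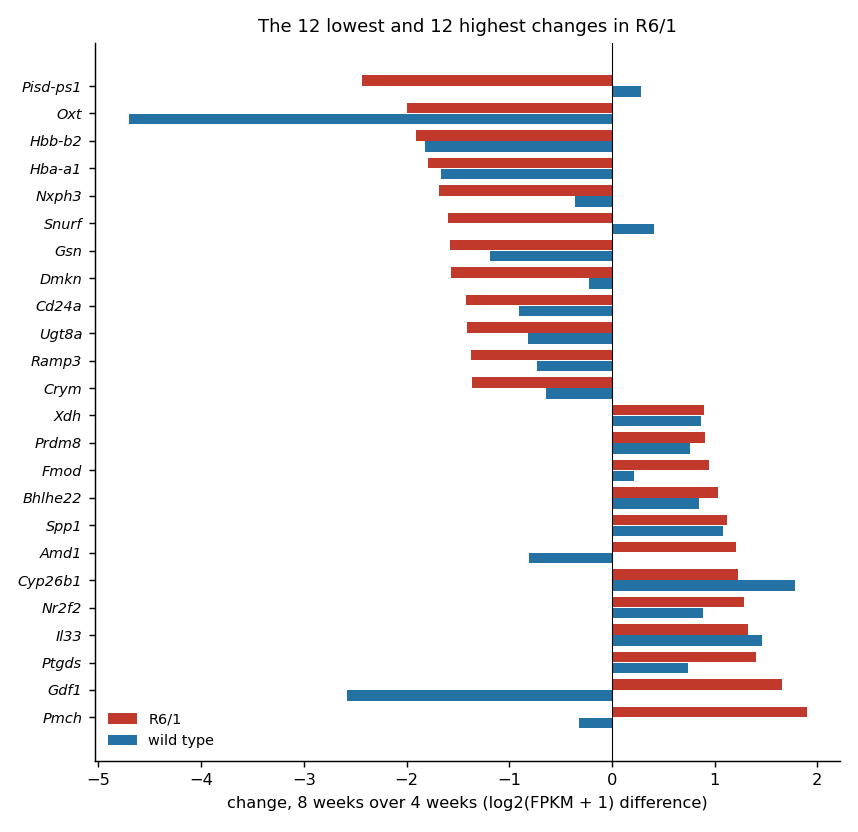
Change between the ages (8 weeks minus 4 weeks, log2(FPKM + 1)) of the 12 genes with the lowest and the 12 with the highest change in R6/1, with the R6/1 bar above the wild-type bar of the same gene (1 pooled value per group, no error). Pisd-ps1, Snurf, Gdf1, Amd1 and Pmch have opposite signs in the 2 genotypes; the other 19 genes have the same sign in both.

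Markers of tissue next to the striatum also differed by age, and their part in the other differences was not tested. Of 16 septal and hypothalamic genes, 13 were below 0 in R6/1 and all 16 were in wild type (medians -0.48 in R6/1 and -0.96 in wild type). Their summed level was 178 FPKM at 8 weeks and 203 FPKM at 4 weeks in R6/1. Wild type had 142 FPKM at 8 weeks and 301 FPKM at 4 weeks. Oxt, the oxytocin precursor, had 3.95 FPKM at 8 weeks and 18.8 FPKM at 4 weeks in R6/1. Wild-type levels were 1.69 FPKM at 8 weeks and 69.0 FPKM at 4 weeks. The 19 choroid plexus genes summed to 827 FPKM in R6/1 at 8 weeks and 938 FPKM at 4 weeks, and to 1983 FPKM at 8 weeks and 799 FPKM at 4 weeks in wild type. Ttr, the transthyretin of choroid plexus, had 565 FPKM at 8 weeks and 655 FPKM at 4 weeks in R6/1. Wild type had 1461 FPKM at 8 weeks and 546 FPKM at 4 weeks. The wild-type pool at 8 weeks stood apart. Of 20 cortical excitatory neuron genes (median -0.08 in R6/1 and 0.21 in wild type), 3 were lower and 2 higher past 1.5-fold in R6/1. Over all genes 2.2% were lower and 0.462% higher. Neurod6, a factor of cortical projection neurons, had 5.67 FPKM at 8 weeks and 13.6 FPKM at 4 weeks in R6/1. Wild-type levels were 10.7 FPKM at 8 weeks and 12.6 FPKM at 4 weeks. The zinc transporter Slc30a3 had 26.8 FPKM at 8 weeks and 14.8 FPKM at 4 weeks in R6/1. Wild type had 38.2 FPKM at 8 weeks and 14.3 FPKM at 4 weeks. All 13 ependymal and cilia genes were below 0 in R6/1 (median -0.57, against -0.41 in wild type). The authors' deposited table for 8 weeks called 14 of 19 choroid plexus genes lower in R6/1 than in wild type, and 0 higher. It called 9 of 20 cortical genes lower and 1 higher, and 0 of 16 septal and hypothalamic genes lower and 1 higher. Over all genes 5.32% were called lower and 0.796% higher. The authors' deposited table for 4 weeks called 5 of those 16 lower, and 0 of the choroid plexus and cortical genes, where 0.178% of all genes were.

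The R6/1 change was lower than the wild-type change past 1.5-fold for 367 genes (2.61%) and higher for 109 (0.774%). The shared spiny projection neuron list had 31 of 40 genes lower in this difference and 0 higher (median -0.72). Its most negative member, Scn4b (-1.70), was near Egr2 (-1.69), and Pisd-ps1 (-2.72) and Snurf (-2.01) lay beyond both. Choroid plexus genes made up 18 of the 367, among them Ttr (-1.63) and Folr1 (-1.55), and those values rest on the wild-type pool at 8 weeks. The highest differences were Gdf1 (4.24), Oxt (2.71), Pmch (2.22), Amd1 (2.01) and Rpl26 (1.96). Rpl26 was at about 0 FPKM in the wild-type pool at 8 weeks. The authors' deposited tables for 8 and 4 weeks called Gdf1, Amd1 and Rpl26 neither lower nor higher in R6/1 than in wild type. Amd1 had q = 0.839 at 8 weeks and q = 0.999 at 4 weeks in the authors' deposited tables.

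In wild type, genes with longer transcripts tended to have higher changes. Across 13915 genes with an annotated length, Spearman's rho with length was 0.43 for the wild-type change, 0.03 for the R6/1 change and -0.36 for the difference, given as descriptions across genes that share 4 pools. Taken relative to genes of the same length class, the shared spiny projection neuron medians were -0.49 in R6/1, 0.25 in wild type and -0.76 in the difference, close to the values without it. For 77 cytosolic ribosomal protein genes the wild-type median of -0.13 became -0.01 relative to length class, and for 79 nuclear oxidative phosphorylation genes it was -0.11 without and 0.00 with that step.

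Lists of protein synthesis, energy, protein turnover and synaptic vesicle genes had medians near that of all genes in R6/1. The medians were 0.02 for the 77 ribosomal protein genes, 0.06 for the 79 oxidative phosphorylation genes, 0.06 for 37 proteasome subunits, 0.02 for 31 chaperones and -0.01 for 36 synaptic vesicle genes. Htt, the endogenous huntingtin gene, had 21.6 FPKM at 8 weeks and 19.6 FPKM at 4 weeks in R6/1. Wild type had 21.8 FPKM at 8 weeks and 18.2 FPKM at 4 weeks. No source used here says whether transgene reads entered this value. Elk1, the ETS factor named in the title of the series, had 20.1 FPKM at 8 weeks and 21.0 FPKM at 4 weeks in R6/1. Wild-type levels were 23.5 FPKM at 8 weeks and 20.4 FPKM at 4 weeks. Its partner Srf had 15.2 FPKM at 8 weeks and 18.045 FPKM at 4 weeks in R6/1. Wild type had 21.4 FPKM at 8 weeks and 20.5 FPKM at 4 weeks. Of 12 genes of the Elk and SRF list, 11 were below 0 in R6/1 and 0 were past 1.5-fold (median -0.10).

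Other R6/1 animals of the series gave a comparison that shares no library with either age: at 10 weeks, R6/1 and wild-type mice injected with a control adeno-associated virus (AAV), with 2 libraries each. Of the 224 genes that were lower at 8 weeks in R6/1 and not lower past 1.5-fold in wild type, 209 were listed there and 63 were called lower in R6/1 than in wild type in the authors' deposited table (30.1% of those listed, and 19.5% of the 323 genes called lower), with 3 called higher. Over all 12855 genes listed, the authors' deposited table for 10 weeks called 2.51% lower and 0.708% higher. Of the 85 genes lower by age in both genotypes, 75 were listed and the authors' deposited table for 10 weeks called 0 lower and 10 higher (13.3% of those listed, and 11.0% of the 91 genes called higher). Of the 65 genes higher at 8 weeks in R6/1, 58 were listed. The authors' deposited table for 10 weeks called 5 of them lower and 5 higher (8.62% each). Of the 224 genes, 152 also had a wild-type change below 0 (median -0.20), so that class holds genes past the size in R6/1 and short of it in wild type, not genes lower in R6/1 alone.

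**Figure D5:**
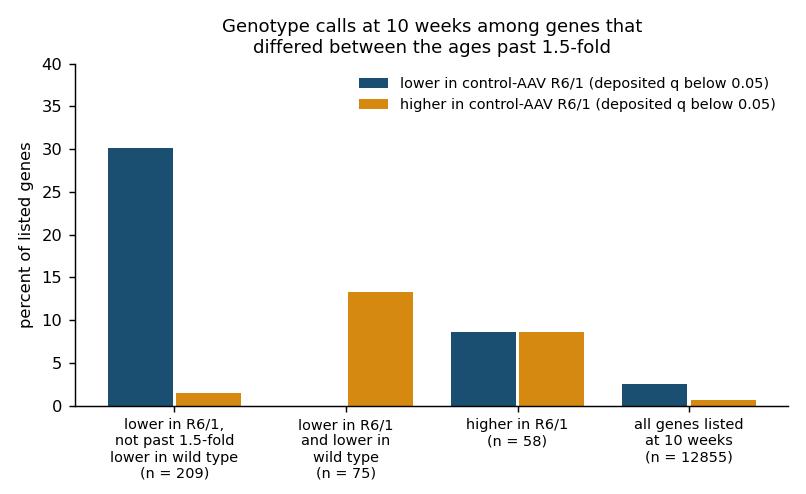
Share of genes called lower (left bar) and higher (right bar) in control-AAV R6/1 than in control-AAV wild type at 10 weeks (deposited q below 0.05, percent of the genes listed there), for genes that differed between 8 and 4 weeks past 1.5-fold and for all genes listed. Genes lower past 1.5-fold in R6/1 and not past it in wild type were called lower in 30.1% of cases, genes lower in both in 0%, and all genes in 2.51%. Genes higher past 1.5-fold in R6/1 were called lower in 8.62% and higher in 8.62% of cases.

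In the authors' deposited table for 10 weeks, Penk had 250 FPKM in control-AAV R6/1 and 749 FPKM in control-AAV wild type (log2 fold change -1.58, q = 0.00312). Scn4b had 38.6 FPKM in control-AAV R6/1 and 172 FPKM in control-AAV wild type in that authors' deposited table (log2 fold change -2.15, q = 0.00312). Egr2 (-2.25, q = 0.00312), Arc (-1.71, q = 0.00312), Ryr1 (-1.32, q = 0.00312) and Nxph3 (-0.95, q = 0.00312) were also called lower in the authors' deposited table. Pdyn was at -0.66 and was not called (q = 0.356) in the authors' deposited table. Myelin genes lay otherwise: the authors' deposited table called 0 of 29 lower and 2 higher, and Gsn was at 0.24 (q = 0.827) and Mbp at 0.18 (q = 0.980) in it. Choroid plexus genes were called higher in 10 of 19 cases in the authors' deposited table, and septal and hypothalamic genes in 8 of 14. Over all 12855 genes listed there, 2.51% were called lower and 0.708% higher.

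Antigen presentation genes were on the other side at 10 weeks. Of 19 genes, 11 were called lower in control-AAV R6/1 than in control-AAV wild type and 0 higher in the authors' deposited table. Of 26 interferon-stimulated genes, 9 were called lower and 0 higher in it. The shares over all genes listed were 2.51% lower and 0.708% higher. In the authors' deposited table for 10 weeks, H2-D1 had 56.6 FPKM in control-AAV R6/1 and 125 FPKM in control-AAV wild type (log2 fold change -1.15, q = 0.00312). H2-Aa had 12.6 FPKM in control-AAV R6/1 and 51.7 FPKM in control-AAV wild type in that authors' deposited table (log2 fold change -2.04, q = 0.00312). For both genes the 10-week values of both genotypes were above those of the 8-week and 4-week pools, and injection, age and table cannot be told apart there.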

How the data were processed

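Total RNA from mouse striatum was made into libraries with a TruSeq kit and sequenced, per the labels. Tools named in the submitters' processing notes are Cuffdiff, Cufflinks, Bowtie and TopHat, with genome build mm9 and no versions; no source used here states the strand setting or the annotation. In all the authors deposited 5 tables, of which 3 were used (14320 rows for 8 weeks, 14539 for 4 weeks and 12980 for 10 weeks). Each holds 1 pooled FPKM value per group, with the authors' deposited log2 fold change, p-value and q-value between genotypes. No value per library is given, so depth is unknown, and the planned limma fits, the fits with a replicate block and the fits without a replicate were not possible; this is why no test across ages is reported.

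Of 14193 shared symbols, 17 small RNA rows and 100 genes under a mean of 0.5 FPKM were left out. Columns were scaled to the same median over shared rows, and changes are differences of log2(FPKM + 1), counted past 1.5-fold. Genes at a listed position that another gene shares (1859, or 13.2%) are uncertain. Some are marked so where they are named. Dlx1, Nr2f2, Gm10754, Hba-a1, Hbb-b2 and Snrpn share their listed positions too. Positions are as listed on mm9, and the base of the starts (0 or 1) is unknown. Transcript length is the longest GENCODE M21 transcript of a symbol (98.9% of genes matched), in 20 classes. The 46 gene lists, the members and the rules were chosen with earlier results of these data known. Named genes are the 12 highest and 12 lowest R6/1 changes, the 8 highest and 8 lowest differences from the wild-type change, up to 3 members per list described with the largest change, and listed background genes of Huntington's disease striatum; the exceptions are named as such. Some genes that this rule names are not reported here. The list for growth hormone and pituitary genes had 1 gene compared (Pomc, -0.02 in R6/1). The scripts were tested on simulated data. Python 3.11.15, numpy 2.4.6, pandas 2.3.3, scipy 1.17.1 and matplotlib 3.10.9 were used.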

Additional observations from a re-analysis of the deposited data

How the results depend on the processing

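Pooled values limit these results: no spread between libraries, no depth and no test across ages could be had. No paired analysis was possible because the tables hold 1 pooled value per group, and for the same reason leaving out a replicate gave no value. With a pseudocount of 0.1 in place of 1, R6/1 had 579 genes lower and 190 higher past 1.5-fold, and 639 lower and 296 higher after subtracting wild type; with 0.5, 109 genes were higher in R6/1 and 191 after subtracting wild type. Past 2-fold, 52 were lower and 9 higher in R6/1, and 61 lower and 14 higher after subtracting wild type. In R6/1, list medians kept their sign where they moved by over 0.1: with a pseudocount of 0.1, cell cycle -0.80, ependymal -0.77, septal and hypothalamic -0.59 and globin -1.26; with 0.5, -0.60 for cell cycle, -0.69 for ependymal and -1.14 for globin; at a mean of at least 2 FPKM, -0.31 for cell cycle and -0.36 for collagens. The cause was not tested. In wild type, the axon guidance median was 0.05 without and -0.08 with transcript length classes. Of 493 R6/1 list medians recomputed under the alternatives, 484 moved by at most 0.1, and no value changed sign among those past 1.5-fold. Leaving out shared positions or using length classes left too few globin genes for a median.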

Other observations

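Matrix, guidance and clock genes were not described above. Past 1.5-fold, 2.2% of all genes were lower and 0.462% higher in R6/1. Of 30 collagens and proteoglycans (median -0.18 in R6/1 and -0.20 in wild type), 3 were lower and 2 higher past 1.5-fold in R6/1. Col6a1 had 13.4 FPKM at 8 weeks and 34.0 FPKM at 4 weeks in R6/1 (change -1.28). Wild type had 28.7 FPKM at 8 weeks and 36.8 FPKM at 4 weeks (change -0.35). Col5a1 had 0.873 FPKM at 8 weeks and 2.19 FPKM at 4 weeks in R6/1. Wild-type levels were 1.61 FPKM at 8 weeks and 1.76 FPKM at 4 weeks. Ncan, a proteoglycan of perineuronal nets, had 33.3 FPKM at 8 weeks and 54.1 FPKM at 4 weeks in R6/1. Wild type had 48.8 FPKM at 8 weeks and 52.6 FPKM at 4 weeks. Ncan was the 1 gene of 10 on its list lower past 1.5-fold (median -0.20). Of 47 axon guidance genes 3 were lower past 1.5-fold (median -0.10), Sema5a, Plxnb3 and Sema6a, with changes of -0.63, -0.60 and -0.59 in R6/1. Among 18 circadian clock genes (median 0.01), Npas2 was at -0.69 in R6/1 and 0.05 in wild type, while Rora was at 0.72 in R6/1 and 0.80 in wild type.

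Vascular genes were close to all genes, with medians of 0.00 for 25 endothelial and 0.09 for 17 mural cell genes. For the counts below, 2.2% of all genes were lower past 1.5-fold in R6/1 and 0.462% higher. The smooth muscle actin Acta2 had the highest change of the mural list, with 11.8 FPKM at 8 weeks and 6.55 FPKM at 4 weeks in R6/1 (change 0.76). Wild type had 5.64 FPKM at 8 weeks and 6.76 FPKM at 4 weeks (change -0.23). Among 22 interneuron genes (median -0.23), Npy had 75.4 FPKM at 8 weeks and 108 FPKM at 4 weeks in R6/1. Wild-type levels were 120 FPKM at 8 weeks and 130 FPKM at 4 weeks. Among 22 imprinted genes (median 0.06), Peg10 had 7.74 FPKM at 8 weeks and 16.7 FPKM at 4 weeks in R6/1. Wild type had 11.5 FPKM at 8 weeks and 24.0 FPKM at 4 weeks. Dlk1 had 7.66 FPKM at 8 weeks and 13.4 FPKM at 4 weeks in R6/1. Wild type had 6.83 FPKM at 8 weeks and 17.6 FPKM at 4 weeks. Of 31 sodium and calcium channel subunits (median 0.02), Scn4b was the 1 past 1.5-fold. Of 17 thalamic and pallidal genes (median -0.14), 4 were lower and 2 higher past 1.5-fold. The glutamate transporter Slc17a6 had 13.03 FPKM at 8 weeks and 6.57 FPKM at 4 weeks in R6/1. Wild-type levels were 8.01 FPKM at 8 weeks and 6.08 FPKM at 4 weeks. The 18 huntingtin interactors had a median of 0.08, with Sh3gl3 at -0.65 in R6/1 and -0.43 in wild type. The 6 globin and erythroid genes had medians of -1.03 in R6/1 and -1.46 in wild type. The 8 Y-linked and X-inactivation genes had a median of 0.04, and Ddx3y had 19.4 FPKM at 8 weeks and 16.8 FPKM at 4 weeks in R6/1. Wild type had 15.5 FPKM at 8 weeks and 13.99 FPKM at 4 weeks.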
